A study of Homo sapiens with 9 samples.

Results

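A set of 75 protein-coding genes stood on opposite sides of the control level under 2 hairpins against the same gene, GPX3, in OVCAR3 ovarian cancer cells. The genes were chosen by their measured levels. A gene entered when its mean over all libraries was at least 2 CPM (the count of a gene over the total count of its library, times 1000000). Its 3 control values also had to lie strictly between the 3 values of one hairpin and the 3 of the other, and the mean CPM of the hairpins had to differ by at least 0.4 on the log2 scale. SLC9A2 met these conditions and was left out by the rule. Of 12149 protein-coding genes with a mean CPM of at least 2, 75 qualified, which is 0.617%; the deposited table held 19951 protein-coding genes and 58735 genes in all. In 39 of the 75 the level was lowest with one hairpin (sh76), intermediate in the control and highest with the other (sh78), and in 36 the order was the reverse. Since the levels of all 9 libraries chose the members, the differences between groups below are a description of these libraries, and the counts of edgeR calls given for the same contrasts describe them too and support nothing.

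The study measured polyadenylated RNA in 9 samples of OVCAR3, an established human ovarian cancer line grown in RPMI medium with serum and insulin, after 72 h in culture. The control group carried a scramble hairpin and is labelled WT (3 libraries). The other groups carried hairpin shRNA#76 (sh76, 3 libraries) or hairpin shRNA#78 (sh78, 3 libraries), and both are labelled as GPX3 knock-down. All 3 groups carried a hairpin and came from the same line. The hairpin sequences, the vector and the number of separate transductions were not used here, and nothing in the labels says that replicates came from separate transduced populations; p-values therefore measure only the spread between these samples, which may be technical.

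Cells cut a short hairpin RNA to a guide RNA, and the mRNAs that the guide pairs with are lowered. A guide also pairs with mRNAs other than its target through its short seed, which is why studies use independent hairpins and look for effects that they share. The genes described here are a part of those in which the hairpins did not share a direction, set by the rule above. In edgeR, 5444 of 17023 genes tested had log2 fold changes of opposite sign with the 2 hairpins. Whether a guide paired with the mRNA of any member was not tested. Several members build the epithelial surface and its attachment to the matrix below. LAMA3 and LAMB3 encode chains of laminin-332, the laminin that anchors epithelial cells to their basement membrane. CD44 is a receptor for the matrix glycan hyaluronan, MUC1 a mucin of the apical membrane, and KRT19 a keratin of simple epithelia. GPX3 itself encodes a secreted glutathione peroxidase.

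Library totals ran from 14652965 to 21327562 counts, so that 1 CPM was 14.7 to 21.3 counts. Coordinates are on GRCh38. GPX3 (ENSG00000211445, chromosome 5, 151020438 to 151028993, plus strand) had 174, 109.6 and 115 CPM in the scramble libraries, 57.9, 55.5 and 54.6 CPM with sh76 and 35.6, 28.2 and 28 CPM with sh78. In edgeR, a count model fitted to all 17023 genes kept, its log2 fold change was −1.25 with sh76 (p adjusted over all genes 0.00264) and −2.12 with sh78 (adjusted p 0.000125). Without scramble replicate 1, the highest library, these were −1.02 and −1.88. All 3 sh78 libraries lay below all 3 sh76 libraries. The targeted gene was thus lower with both hairpins and is no member. The 15 ovarian carcinoma markers (PAX8, WT1, MUC16 and others) were detected in the libraries, with summed levels of 14495 to 15378 CPM with scramble, 13821 to 14667 with sh76 and 12172 to 12709 with sh78. The markers did not all follow the sum. KRT8 had 3578 to 4087 CPM with sh78 against 5040 to 5825 with scramble, and KRT18 1468 to 1638 against 1900 to 2314. PAX8 (916 to 1017 against 830 to 955) and MUC16 (1496 to 1806 against 1192 to 1930) overlapped scramble. ESR1 was low, with 0.34 to 1.57 CPM over all libraries. The list of these 15 markers includes the member KRT19. The 9 fibroblast markers summed to 28.4 to 56.9 CPM, the 6 endothelial markers to 18.9 to 31.9 CPM and the 9 leukocyte markers to 2.26 to 4.90 CPM over all libraries, and 2 leukocyte markers were at 0 in every library. The summed endothelial markers were 23.5 to 31.9 CPM with sh78 against 18.9 to 20.2 with scramble and 19.4 to 24.0 with sh76. Of these markers, KDR had 16.2 to 21.0 CPM with sh78 against 8.9 to 10.2 with scramble. VWF overlapped scramble (6.4 to 9.6 CPM with sh78 against 7.1 to 9.6). CDH5, TEK, PECAM1 and CLDN5 were at 1.47 CPM or less in every library. The part of the marker sums in the members' levels was not tested. In bulk samples, fewer cells that express a gene and less RNA per cell cannot be told apart.

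Sizes were mostly small. The hairpins differed by 0.401 to 2.292 on the log2 CPM scale, with a median of 0.682, and 14 of the 75 members differed at least 2-fold. Against scramble, the size of the difference had a median of 0.312 with sh76 (range 0.081 to 1.259) and 0.336 with sh78 (range 0.124 to 1.696). Both differences reached 0.3 in 28 members. In 37 members sh76 lay farther from scramble than sh78 did, 19 of them higher and 18 lower with sh78, so that neither hairpin supplied most of the distance. The gap that separated scramble from the nearer hairpin was narrow in many members. The nearest scramble and hairpin libraries lay within 2% of each other in 19 members, within 5% in 44 and within 10% in 59.

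**Figure D1:**
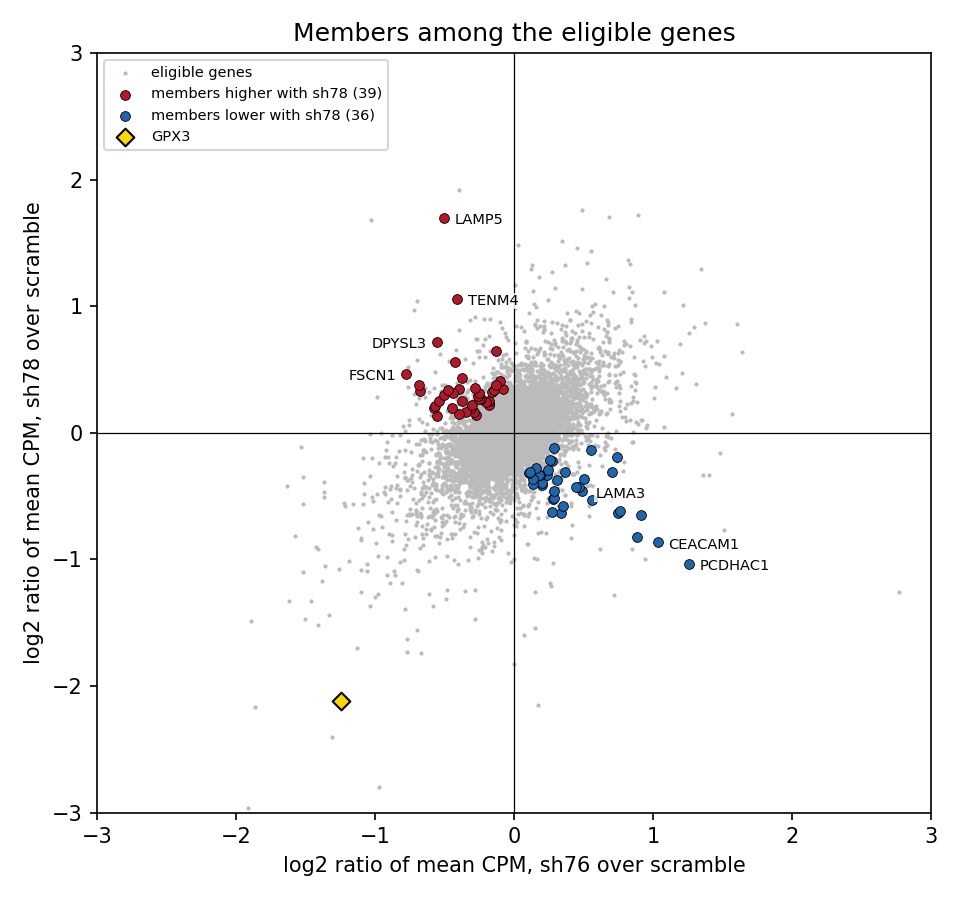
Each grey point is 1 of 12149 eligible protein-coding genes, placed by the log2 ratio of mean CPM with sh76 over scramble (x axis) and with sh78 over scramble (y axis), n = 3 libraries per mean. The 39 members higher with sh78 (red) fill the upper left quadrant and the 36 members lower with sh78 (blue) the lower right; GPX3 (yellow diamond) is in the lower left, reduced by both hairpins.

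The order chosen here was not the most frequent one. Among the 12149 eligible genes, the 3 groups did not overlap, with scramble in the middle, in 136 genes (1.12%), and in 76 of these, SLC9A2 included, the hairpins differed by at least 0.4. With sh76 in the middle there were 167 such genes (1.37%), of which 86 had outer groups at least 0.4 apart, and with sh78 in the middle 126 (1.04%), of which 61 did. The most frequent single order was sh78 below sh76 below scramble, the order of GPX3 itself, with 97 genes. The orders that place scramble in the middle held 75 genes (sh76 lowest) and 61 genes (sh78 lowest). These counts were set side by side without a test.

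**Figure D2:**
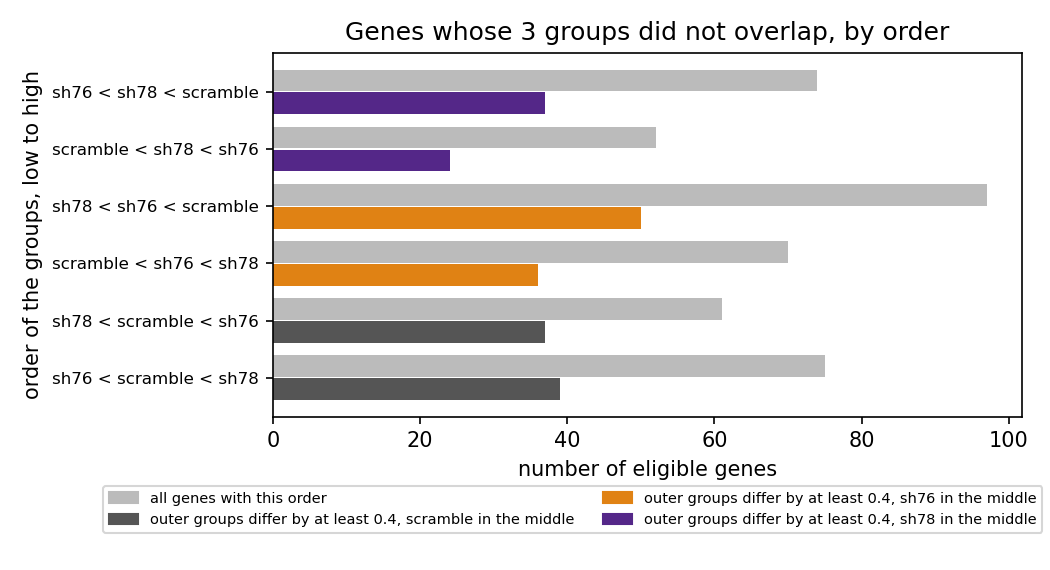
Bars give the number of eligible genes in which the 3 values of each group were separate from those of the other groups, for each of the 6 orders from low to high. Grey bars count all such genes and coloured bars those with outer groups at least 0.4 apart on the log2 CPM scale; the orders with scramble in the middle hold 75 and 61 genes, against 97 for sh78 below sh76 below scramble.

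Adhesion and matrix genes gave 7 of the 36 members lower with sh78 and higher with sh76. LAMA3 (ENSG00000053747, chromosome 18, 23689443 to 23956222, plus strand) had 103, 106 and 119 CPM with scramble, 165, 193 and 199.6 under sh76 and 53.4, 87.6 and 73.2 under sh78. Every sh76 library was above every scramble library, and every sh78 library below. The edgeR log2 fold change against scramble was 0.76 (SE 0.16) with sh76 and −0.62 (SE 0.17) with sh78. LAMB3 (ENSG00000196878, chromosome 1, 209614870 to 209652466, minus strand), the partner beta chain, had 73.7, 69.7 and 76.4 CPM with scramble, 104, 104 and 100.2 under sh76 and 50.5, 55.5 and 53.9 under sh78. Its groups were tight and evenly spaced, with log2 fold changes of 0.48 (SE 0.07) with sh76 and −0.46 (SE 0.07) with sh78. LAMA3 and LAMB3 lie on different chromosomes.

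CEACAM1 (ENSG00000079385, chromosome 19, 42507304 to 42561234, minus strand), an adhesion molecule of the immunoglobulin family, had 13.8, 18.1 and 15.4 CPM with scramble, 32.9, 33.4 and 30.7 under sh76 and 5.44, 10.3 and 10.2 under sh78. The lowest sh76 library held 1.70 times the CPM of the highest scramble library, the widest gap on that side among the 75 members, and the log2 fold changes were 1.02 (SE 0.18) with sh76 and −0.88 (SE 0.20) with sh78. CD44 (ENSG00000026508, chromosome 11, 35138870 to 35232402, plus strand) had 31.6, 36.6 and 45.5 CPM with scramble, 55.3, 65.5 and 70.6 under sh76 and 21.3, 22.7 and 29.6 under sh78. The groups were separate, although replicate 1 was the lowest and replicate 3 the highest of each group. Its log2 fold changes were 0.74 (SE 0.16) with sh76 and −0.64 (SE 0.17) with sh78. PCDHAC1 (ENSG00000248383, chromosome 5, 140926369 to 141012344, plus strand), a clustered protocadherin best known from neurons, showed the widest difference of all members between the hairpins (−2.29 on the log2 CPM scale). It was expressed at a low level, with 1.93, 1.59 and 2.87 CPM with scramble, 3.58, 6.04 and 5.67 under sh76 and 0.599, 1.43 and 1.09 under sh78, and 41.3% of its exonic bases are shared with 14 other genes of the annotation, among them protocadherin alpha genes on the same strand, so that its count is uncertain. PERP, a membrane protein of desmosomes and a p53 target, had 340.3, 317 and 324 CPM with scramble, 344, 349.6 and 364 under sh76 and 261, 255 and 273 under sh78. Scramble replicate 1 and sh76 replicate 1 of PERP were almost equal, and the order no longer held for this gene after scaling with TMM factors (edgeR's library scaling) or with DESeq2 size factors. LGALS8, a galectin, had 39.2, 37.9 and 36.2 CPM with scramble, 44.2, 40 and 43.8 under sh76 and 30.8, 27.4 and 31.6 under sh78; 30.6% of its exonic bases overlap other genes, including HEATR1 on the opposite strand.

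To show the upstream sequence of members of each direction, the 250 bases before the RefSeq transcription start are printed for 4 members lower with sh78 and 2 members higher with sh78. RefSeq promoter windows (GRCh38.p14) matched 56 of the 75 members and 9710 of the 12149 eligible genes. Capitals mark TATAAA (the TATA box), TGANTCA (the site of AP-1, the dimer that FOS takes part in) and TGACG (the core of the cAMP response element), on either strand. LAMA3 (chr18:23872770-23873019, plus strand) and PERP (chr6:138107420-138107669, minus strand) are shown for the AP-1 letters, MUC1 (chr1:155192916-155193165, minus strand) and FOS (chr14:75278578-75278827, plus strand) for the TATA box close to the start, and TENM4 (chr11:79441031-79441280, minus strand) and LAMP5 (chr20:9514340-9514589, plus strand), the members with the highest ratio of sh78 to sh76, as windows with no such match. Other letters counted below are not capitalised. CACCTG was in the windows of TENM4, LAMA3 and MUC1, and CCAAT in those of TENM4 and LAMP5. GGGCGG was in the windows of LAMA3, PERP, MUC1 and FOS, and GGAATG in that of MUC1. All are written 5′ to 3′ on the strand of the gene, and the last base lies next to the start.
LAMA3: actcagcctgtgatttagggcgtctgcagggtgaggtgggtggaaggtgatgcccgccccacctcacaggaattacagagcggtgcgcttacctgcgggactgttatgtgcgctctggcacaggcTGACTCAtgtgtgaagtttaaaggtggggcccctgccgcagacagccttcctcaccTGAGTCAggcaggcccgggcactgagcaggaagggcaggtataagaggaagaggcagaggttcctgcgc
PERP: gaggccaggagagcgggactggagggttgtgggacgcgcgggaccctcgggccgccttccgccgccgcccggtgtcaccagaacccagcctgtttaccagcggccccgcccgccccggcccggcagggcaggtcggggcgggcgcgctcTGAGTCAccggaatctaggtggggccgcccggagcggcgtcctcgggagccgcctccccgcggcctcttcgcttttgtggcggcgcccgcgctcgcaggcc
MUC1: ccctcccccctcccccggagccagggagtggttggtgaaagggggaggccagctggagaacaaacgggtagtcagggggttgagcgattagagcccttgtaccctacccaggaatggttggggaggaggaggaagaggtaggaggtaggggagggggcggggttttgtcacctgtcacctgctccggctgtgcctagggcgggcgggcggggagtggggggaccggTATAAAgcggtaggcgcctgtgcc
FOS: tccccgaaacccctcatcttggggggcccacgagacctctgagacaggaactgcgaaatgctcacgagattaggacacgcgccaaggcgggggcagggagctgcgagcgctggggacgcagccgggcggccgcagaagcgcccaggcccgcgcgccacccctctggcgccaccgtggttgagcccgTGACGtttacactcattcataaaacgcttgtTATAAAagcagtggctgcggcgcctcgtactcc
TENM4: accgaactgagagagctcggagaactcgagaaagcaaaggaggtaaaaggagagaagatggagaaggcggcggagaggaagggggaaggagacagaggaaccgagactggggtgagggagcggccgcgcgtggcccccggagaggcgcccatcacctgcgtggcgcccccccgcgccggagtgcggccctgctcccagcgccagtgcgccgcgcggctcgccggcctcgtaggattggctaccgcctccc
LAMP5: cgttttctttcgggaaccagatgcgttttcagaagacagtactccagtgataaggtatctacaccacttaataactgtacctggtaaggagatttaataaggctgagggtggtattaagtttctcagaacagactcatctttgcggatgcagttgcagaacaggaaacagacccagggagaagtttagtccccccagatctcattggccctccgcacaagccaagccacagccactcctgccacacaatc
In the LAMA3 window the AP-1 letters begin 125 and 69 bases before the start. This start lies inside the gene body given by GENCODE; LAMA3 is known to have a long and a short transcript form. In the PERP window they begin 101 bases before the start, and in the MUC1 and FOS windows the TATA box begins 24 and 33 bases before it.

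Counted over all matched windows, 5 of 29 members lower with sh78 held TATAAA (17.2%), against 0 of 27 members higher with sh78 and 4.9% of eligible genes. The 5 were MUC1, FOS, TENT5A, ADAR and LGALS8. The count took matches anywhere in the window. The ADAR match began 207 bases before the start, the LGALS8 matches 233 and 59, and the TENT5A matches 238 and 30. TGANTCA was found in LAMA3, ADAR and PERP, which is 3 of 29 (10.3%), in 0 of 27 of the other direction and in 3.8% of eligible genes. The letters CACCTG, an E-box bound by Snail and ZEB factors, ran the other way, with 8 of 27 members higher with sh78 (29.6%), 4 of 29 lower with sh78 (13.8%) and 16.1% of eligible genes. TGACG was present in 11.1% of windows of members higher with sh78, 24.1% of those lower with sh78 and 29.8% of eligible genes. The GC box GGGCGG was present in 55.6%, 58.6% and 68.5%, and CCAAT in 29.6%, 17.2% and 35.0%. GGAATG, the TEAD site, was present in 3.7%, 13.8% and 9.2%, and TGACNNNGC, the antioxidant response element core, in 3.7%, 6.9% and 12%. Both strands were searched, and matches of different motifs could overlap. The members higher with sh78 had windows with a median GC content of 69.2% and 21 CpG dinucleotides, those lower with sh78 62.4% and 11, and eligible genes 65.2% and 21. The motifs were chosen after the members were known, the counts are few, and letters in a window show no binding.

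Mucin and glycan genes had 3 members, all lower with sh78. MUC1 (ENSG00000185499, chromosome 1, 155185824 to 155192916, minus strand) had 52.1, 44 and 42.2 CPM with scramble, 73.7, 62 and 68.3 under sh76 and 33.5, 24.8 and 37.5 under sh78. The highest sh78 library stayed below the lowest scramble library, and the log2 fold changes were of like size, 0.55 (SE 0.13) with sh76 and −0.53 (SE 0.13) with sh78. GCNT3, which branches mucin-type glycans, had 27.1, 25.1 and 25.5 CPM with scramble, 28.9, 30.5 and 32.8 under sh76 and 20.6, 18.6 and 24.2 under sh78. ST6GALNAC5, a sialyltransferase that acts on gangliosides, had 44.9, 46 and 47.8 CPM with scramble, 59.6, 53.4 and 53 under sh76 and 41.9, 38.1 and 39.7 under sh78. Their log2 fold changes were 0.24 (SE 0.11) with sh76 and −0.30 (SE 0.11) with sh78 for GCNT3, and 0.25 (SE 0.08) with sh76 and −0.22 (SE 0.08) with sh78 for ST6GALNAC5.

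The keratin KRT19 and the calcium-binding protein S100A6, both lower with sh78, had the highest levels of the members once gene length was scaled for. By FPKM, which scales for gene length, KRT19 was the most abundant member in scramble cells (mean 679), followed by S100A6 (307), LDHA (108) and PERP (76.1), and PCDHAC1 was the least (0.308). KRT19 (ENSG00000171345, chromosome 17, 41523617 to 41528308, minus strand) had 1535, 1588 and 1638 CPM with scramble, 1943, 2068 and 2130.1 under sh76 and 1154, 1299 and 1383 under sh78. All 3 groups were separate, and the log2 fold changes were 0.36 (SE 0.08) with sh76 and −0.31 (SE 0.08) with sh78. S100A6 (ENSG00000197956, chromosome 1, 153534599 to 153536244, minus strand), a small calcium-binding protein, had 320.0, 275 and 302 CPM with scramble, 429, 386 and 407 under sh76 and 216, 228 and 222 under sh78, with log2 fold changes of 0.44 (SE 0.07) with sh76 and −0.43 (SE 0.07) with sh78. ZNF185, a LIM domain protein of the actin cytoskeleton, had 47.8, 48.7 and 52.3 CPM with scramble, 53.3, 60.5 and 66 under sh76 and 41, 42 and 44.7 under sh78, an order that TMM scaling ended. CFAP52, a protein of motile cilia, had the lowest depth of the cytoskeletal members, with 1.8, 2.06 and 1.91 CPM with scramble, 3.02, 3.31 and 2.16 under sh76 and 1.74, 1.71 and 1.8 under sh78. Its sh78 libraries were close to scramble, and with TMM scaling the groups overlapped.

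The transcription factor gene FOS and 2 RNA-acting genes, TENT5A and ADAR, were also lower with sh78. FOS (ENSG00000170345, chromosome 14, 75278774 to 75282230, plus strand), the AP-1 subunit induced within minutes of growth factor signals, had 7.8, 7.89 and 6.93 CPM with scramble, 12.6, 13.1 and 11.3 under sh76 and 6.15, 5.46 and 6.62 under sh78. The distance from scramble was wider with sh76 than with sh78, with log2 fold changes of 0.70 (SE 0.14) with sh76 and −0.31 (SE 0.14) with sh78. TENT5A, a non-canonical poly(A) polymerase, had 7.86, 7.06 and 8.62 CPM with scramble, 11.9, 8.77 and 9.47 under sh76 and 4.79, 4.78 and 6.17 under sh78, and its order did not hold after TMM scaling. ADAR, the enzyme that turns adenosine into inosine in double-stranded RNA and is itself interferon-inducible, had 423, 387 and 398 CPM with scramble, 470.0, 452 and 469.9 under sh76 and 296, 311 and 300.0 under sh78. Its larger distance from scramble was with sh78, at log2 fold changes of 0.19 (SE 0.06) with sh76 and −0.42 (SE 0.06) with sh78.

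Proteases and receptors held further members lower with sh78. PLAU, the urokinase plasminogen activator, had 68.1, 67.1 and 77.1 CPM with scramble, 88.5, 111 and 102 under sh76 and 48.2, 62.5 and 54.2 under sh78. The rhomboid protease RHBDL2 had 3.54, 3.94 and 4.5 CPM with scramble, 5.28, 6.04 and 5.3 under sh76 and 2.5, 3.21 and 3.21 under sh78. PRSS12, the protease neurotrypsin, was the member closest to the ratio threshold in this direction (−0.41), with 304, 339 and 303 CPM with scramble, 384, 388 and 380.3 under sh76 and 283, 301 and 283 under sh78; its order was lost after TMM scaling. Among receptors, PTPRZ1 (ENSG00000106278, chromosome 7, 121873089 to 122062036, plus strand), a receptor tyrosine phosphatase of the nervous system that binds pleiotrophin, had 6.96, 4.83 and 4.28 CPM with scramble, 11.8, 8.92 and 9.57 under sh76 and 3.1, 3.69 and 3.47 under sh78. Its 3 sh76 libraries stood clear of the rest, and the log2 fold changes were 0.91 (SE 0.19) with sh76 and −0.65 (SE 0.21) with sh78. ALK, a receptor tyrosine kinase of the developing nervous system, had 20.3, 21.1 and 22.6 CPM with scramble, 25.9, 24.9 and 28.6 under sh76 and 14.7, 17.4 and 17.4 under sh78. CD109, a membrane-anchored protein that binds TGF-beta, had 61, 62.8 and 67.7 CPM with scramble, 78.4, 70.9 and 83.9 under sh76 and 42.8, 45.6 and 51 under sh78. RRAGD, a GTPase of amino acid sensing by mTORC1, had 23.5, 26.3 and 24.9 CPM with scramble, 31.1, 30.2 and 29 under sh76 and 16.4, 13.9 and 18.1 under sh78, and its distance from scramble was wider with sh78. GNAQ, a G protein alpha subunit, had 251, 253 and 256 CPM with scramble, 280.0, 289 and 266 under sh76 and 194, 193 and 188 under sh78. NENF, which encodes the secreted factor neudesin, had 20, 20.5 and 20 CPM with scramble, 20.9, 24.4 and 21.3 under sh76 and 13.3, 16.7 and 17 under sh78, with scramble and sh76 less than 5% apart at their nearest libraries.

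Metabolic and transport genes completed this direction. GPAT3 (ENSG00000138678, chromosome 4, 83535914 to 83605875, plus strand), an enzyme of the first step of glycerolipid synthesis, had 2.96, 3.3 and 3.55 CPM with scramble, 6.54, 5.16 and 6.38 under sh76 and 2.5, 1.43 and 1.61 under sh78. All 3 groups were separate, with 21 to 136 counts per library. Its log2 fold changes were 0.87 (SE 0.21) with sh76 and −0.81 (SE 0.24) with sh78. NQO1, a quinone reductase and NRF2 target, had 88.9, 89.6 and 99.4 CPM with scramble, 104, 105 and 111 under sh76 and 63.6, 69.5 and 77.6 under sh78. LDHA, which reduces pyruvate to lactate, had 663, 648 and 701 CPM with scramble, 800.2, 728 and 719 under sh76 and 518, 580.3 and 562 under sh78. In both genes the distance from scramble was wider with sh78, with log2 fold changes of 0.19 (SE 0.09) with sh76 and −0.40 (SE 0.09) with sh78 for NQO1 and 0.15 (SE 0.07) with sh76 and −0.28 (SE 0.07) with sh78 for LDHA. HGD, of tyrosine breakdown, had 5.35, 7.12 and 6.03 CPM with scramble, 7.17, 7.26 and 8.02 under sh76 and 3.75, 4.57 and 4.56 under sh78, an order that TMM scaling ended. GGT6, of the gamma-glutamyltransferase family, had 13.6, 13.5 and 13.5 CPM with scramble, 16.7, 14.7 and 18.1 under sh76 and 9.69, 7.78 and 10.9 under sh78. SLC26A2 (ENSG00000155850, chromosome 5, 149960737 to 149993455, plus strand), a sulfate transporter, had 36.7, 39.2 and 36.4 CPM with scramble, 60.9, 63.3 and 63.8 under sh76 and 29.8, 33.1 and 35.3 under sh78. Its sh76 libraries stood far from scramble and its sh78 libraries near it, with log2 fold changes of 0.73 (SE 0.08) with sh76 and −0.20 (SE 0.09) with sh78. ATP8B1, a phospholipid flippase, had 67, 65.2 and 67.2 CPM with scramble, 70, 72.7 and 73.1 under sh76 and 52.3, 50.8 and 58 under sh78. The other members lower with sh78 were CRYBG2, TRIM16 and ITPRID2. CRYBG2, which carries a crystallin domain, had 4.32, 5.24 and 5.63 CPM with scramble, 6.1, 7.02 and 6.05 under sh76 and 3.59, 3.41 and 2.76 under sh78, TRIM16 had between 39.0 and 69.1 CPM over all libraries, and ITPRID2 between 50.8 and 88.1 CPM.

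**Figure D3:**
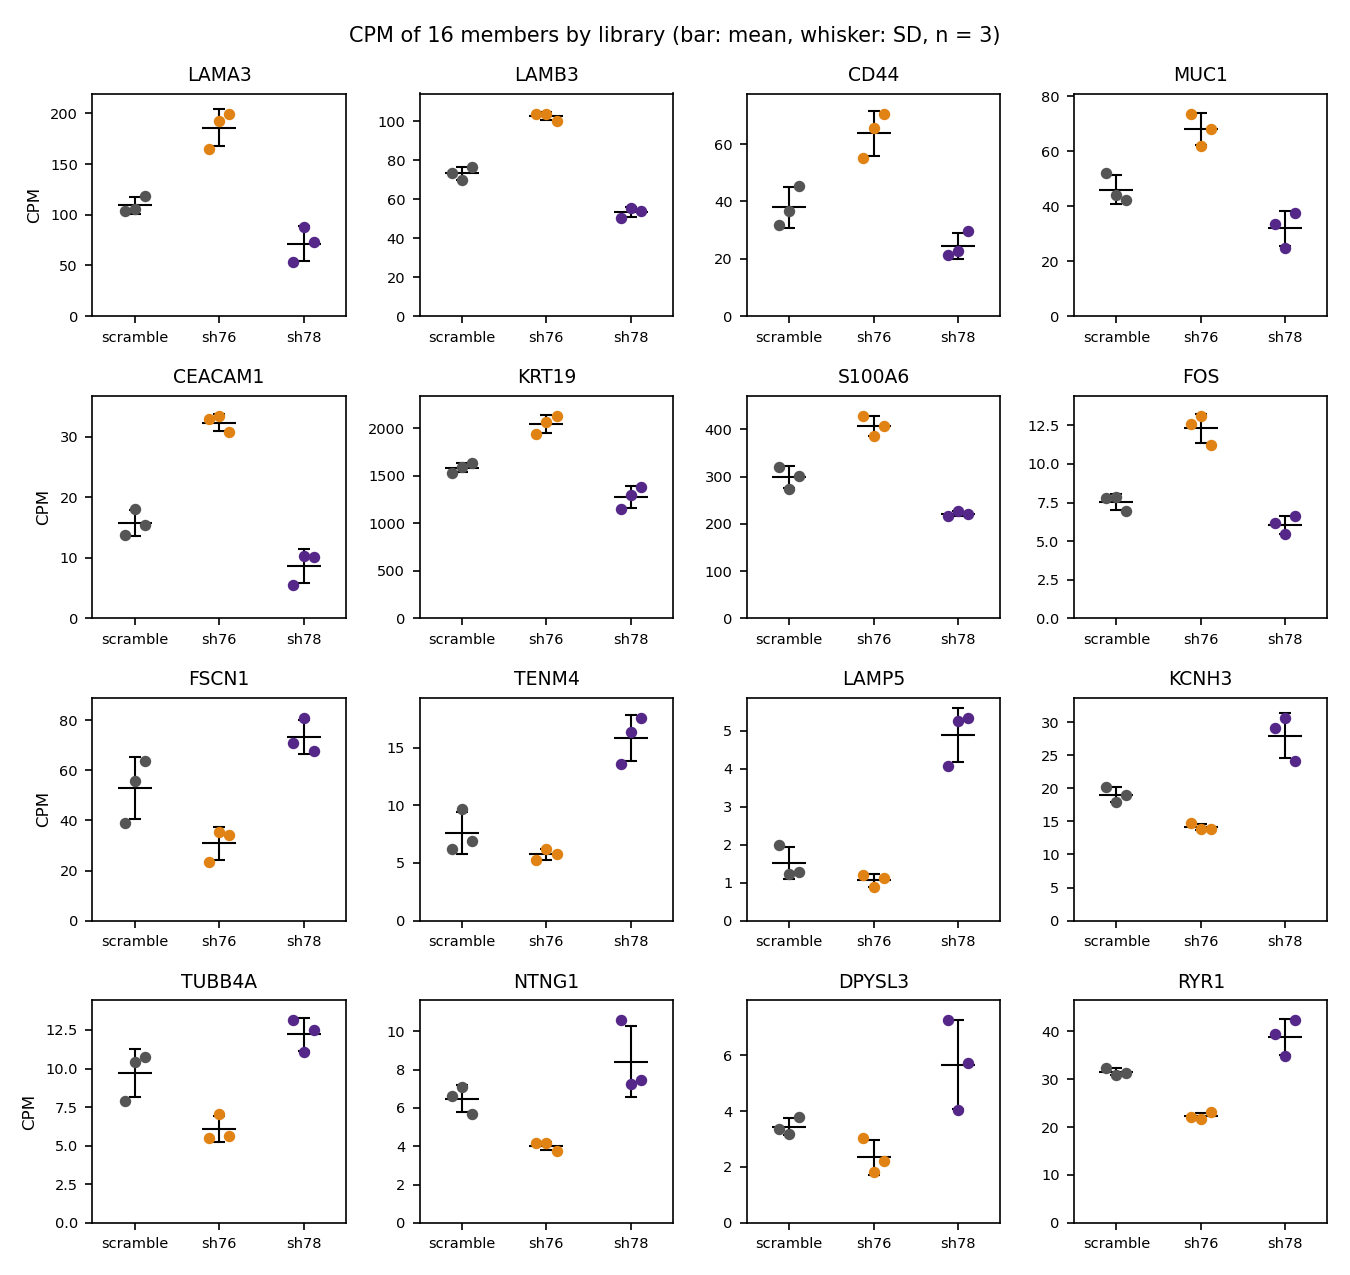
Each panel shows 1 member, with CPM on a linear axis from 0, a point per library (replicates 1 to 3 from left to right), the mean as a bar and the SD as a whisker (n = 3). The upper 8 genes are highest with sh76 and lowest with sh78, for example S100A6 with 386 CPM or more with sh76 and 228 CPM or less with sh78; the lower 8 run the other way, with scramble in the middle in each.

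In the reverse direction, lowest with sh76 and highest with sh78, LAMP5 and TENM4 had the highest ratios between the hairpins. LAMP5 (ENSG00000125869, chromosome 20, 9514358 to 9530524, plus strand), a lysosome-associated membrane protein of neurons, had 2.0, 1.24 and 1.3 CPM with scramble, 1.19, 0.877 and 1.13 under sh76 and 4.08, 5.25 and 5.33 under sh78. Most of its distance was with sh78, and its log2 fold changes were −0.51 (SE 0.29) with sh76 and 1.69 (SE 0.25) with sh78. TENM4 (ENSG00000149256, chromosome 11, 78652831 to 79440948, minus strand), a teneurin adhesion protein, had 6.25, 9.71 and 6.87 CPM with scramble, 5.22, 6.19 and 5.81 under sh76 and 13.6, 16.4 and 17.5 under sh78. Its sh78 libraries stood clear above the rest and its sh76 libraries just below scramble, at log2 fold changes of −0.41 (SE 0.18) with sh76 and 1.05 (SE 0.17) with sh78. NTNG1 (ENSG00000162631, chromosome 1, 107140007 to 107483458, plus strand), a membrane-anchored netrin of axons, had 6.64, 7.06 and 5.69 CPM with scramble, 4.15, 4.14 and 3.75 under sh76 and 10.6, 7.23 and 7.45 under sh78. Here the sh76 libraries stood apart, and sh78 replicates 2 and 3 were close to the highest scramble library. The log2 fold changes of NTNG1 were −0.70 (SE 0.18) with sh76 and 0.38 (SE 0.17) with sh78.

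The cytoskeletal members of this direction were FSCN1, DPYSL3, TUBB4A and TPM1. FSCN1 (ENSG00000075618, chromosome 7, 5592823 to 5606655, plus strand), the actin-bundling protein fascin of filopodia, had 39.2, 55.9 and 63.7 CPM with scramble, 23.4, 35.2 and 34.2 under sh76 and 70.8, 80.8 and 67.9 under sh78. The scramble values were spread widely, yet no group overlapped another, and the log2 fold changes were −0.78 (SE 0.20) with sh76 and 0.46 (SE 0.20) with sh78. DPYSL3 (ENSG00000113657, chromosome 5, 147390811 to 147510056, minus strand), a microtubule-associated protein of growth cones, had 3.35, 3.18 and 3.77 CPM with scramble, 3.02, 1.8 and 2.2 under sh76 and 7.24, 4.03 and 5.72 under sh78. TUBB4A (ENSG00000104833, chromosome 19, 6494319 to 6502848, minus strand), a neuronal beta tubulin, had 7.93, 10.4 and 10.8 CPM with scramble, 5.53, 7.07 and 5.63 under sh76 and 13.1, 11.1 and 12.5 under sh78. TPM1, a tropomyosin of actin filaments, had 176, 187 and 182 CPM with scramble, 134, 166 and 156 under sh76 and 200.5, 255 and 202 under sh78; 21.4% of its exonic bases overlap other genes.

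Among matrix and adhesion genes of this direction, COL9A1, a collagen IX chain, had 3.54, 3.24 and 3.38 CPM with scramble, 2.45, 2.48 and 2.91 under sh76 and 5.17, 3.69 and 4.88 under sh78. MCAM, an adhesion molecule also called CD146, had 18.4, 18.7 and 20 CPM with scramble, 13, 17.5 and 17.1 under sh76 and 20.2, 26.3 and 23.1 under sh78, and its order was lost after TMM scaling. FERMT2, which encodes kindlin-2, an activator of integrins, had 40.2, 36.9 and 35.5 CPM with scramble, 35.3, 33.8 and 28.6 under sh76 and 45.5, 47.4 and 40.3 under sh78. LTBP3, which holds TGF-beta in the matrix, had 280.4, 278 and 267 CPM with scramble, 257, 263 and 259.9 under sh76 and 335, 339.6 and 373 under sh78. For LTBP3 the sh76 libraries were just below scramble, and the log2 fold changes were −0.09 (SE 0.06) with sh76 and 0.34 (SE 0.06) with sh78.

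Channels, proteases and metabolic genes followed. KCNH3 (ENSG00000135519, chromosome 12, 49539157 to 49558308, plus strand), a voltage-gated potassium channel of the brain, had 20.2, 18 and 18.9 CPM with scramble, 14.7, 13.9 and 13.8 under sh76 and 29.2, 30.6 and 24.2 under sh78. Its groups were separated on both sides, with log2 fold changes of −0.44 (SE 0.11) with sh76 and 0.55 (SE 0.11) with sh78. RYR1 (ENSG00000196218, chromosome 19, 38433699 to 38587564, plus strand), the calcium release channel of skeletal muscle, had 32.3, 30.9 and 31.3 CPM with scramble, 22, 21.6 and 23.1 under sh76 and 39.4, 34.8 and 42.2 under sh78. Within each group its values lay close together, with log2 fold changes of −0.51 (SE 0.09) with sh76 and 0.30 (SE 0.09) with sh78. CLCN5, a chloride and proton exchanger of endosomes, had 15.6, 14.7 and 14.5 CPM with scramble, 11.3, 13.3 and 13.3 under sh76 and 17.7, 18.5 and 17.7 under sh78. CPE, which trims prohormones, had 27.4, 26.2 and 25.8 CPM with scramble, 16.7, 18.8 and 18.1 under sh76 and 34.2, 28.1 and 29.8 under sh78, and TMPRSS2, a membrane serine protease, had 26, 22 and 23.8 CPM with scramble, 14.7, 17.9 and 16.9 under sh76 and 28.3, 27.3 and 30 under sh78. In these 2 proteases the distance from scramble was wider with sh76, at −0.57 (SE 0.10) and −0.54 (SE 0.11), against 0.21 (SE 0.10) and 0.25 (SE 0.11) with sh78. BCAT1, a transaminase of branched-chain amino acids, had 151, 144 and 141 CPM with scramble, 89.5, 102 and 104 under sh76 and 157, 159 and 162 under sh78; most of its difference was with sh76 (−0.56 (SE 0.07), against 0.13 (SE 0.07) with sh78). SELENBP1, a selenium-binding protein, was its opposite, with 32.2, 31.4 and 30.7 CPM with scramble, 29.9, 26.6 and 29.7 under sh76 and 47.5, 46.3 and 53.9 under sh78 and log2 fold changes of −0.14 (SE 0.09) with sh76 and 0.64 (SE 0.09) with sh78.

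Trafficking and autophagy genes, 4 in all, were all in this direction. Beside LAMP5, MAP1LC3A, an LC3 protein of autophagosomes, had 8.31, 8.77 and 7.83 CPM with scramble, 4.72, 5.85 and 6.19 under sh76 and 10.6, 8.87 and 9.13 under sh78. SEC23A, a coat protein of vesicles that leave the endoplasmic reticulum, had 82.2, 87.6 and 85.1 CPM with scramble, 67, 64.5 and 62.4 under sh76 and 92.1, 96.9 and 92.7 under sh78. MCTP1, a calcium-binding membrane protein, had 40.8, 40.4 and 35.6 CPM with scramble, 27.7, 29.8 and 28.4 under sh76 and 48.4, 43 and 42.7 under sh78. In these 3 genes the sh76 libraries were farther from scramble than the sh78 libraries.

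Transcription and signalling members of this direction included those nearest to the ratio threshold. TBL1XR1, a subunit of a corepressor complex, had 348, 381 and 392 CPM with scramble, 317, 328 and 347 under sh76 and 445, 403 and 462 under sh78, and TMM scaling ended its order. TEAD2, the DNA-binding partner of YAP, had 57.9, 55.1 and 56.1 CPM with scramble, 48.2, 53.4 and 47.4 under sh76 and 71.4, 65.1 and 60.3 under sh78. With log2 ratios of 0.4014 and 0.402 these were the members nearest above the threshold, and genes just below it included FAM171A1 (0.392) and ZYX (0.390). MCRIP1, PRAME and ZNF827 had log2 ratios of 0.63, 0.64 and 0.51 between the hairpins. ADGRG1 (an adhesion G protein-coupled receptor also called GPR56) had 522, 531 and 524 CPM with scramble, 433, 422 and 439 under sh76 and 600.1, 556 and 615 under sh78. The other signalling members were SBK1 (0.74 on the log2 CPM scale between the hairpins), PKIA (0.76), NELL2 (0.52), DIXDC1 (0.51), RGS12 (0.48) and DLG4 (0.41). DLG4, which encodes PSD-95, and NELL2 are known from neurons. The remaining members were BICC1 (0.57), an RNA-binding protein, PLLP (0.51), SPOPL (0.51), FAM89B (0.49) and BTBD8 (0.43). The orders of PRAME and NELL2 were lost after TMM scaling.

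**Figure D4:**
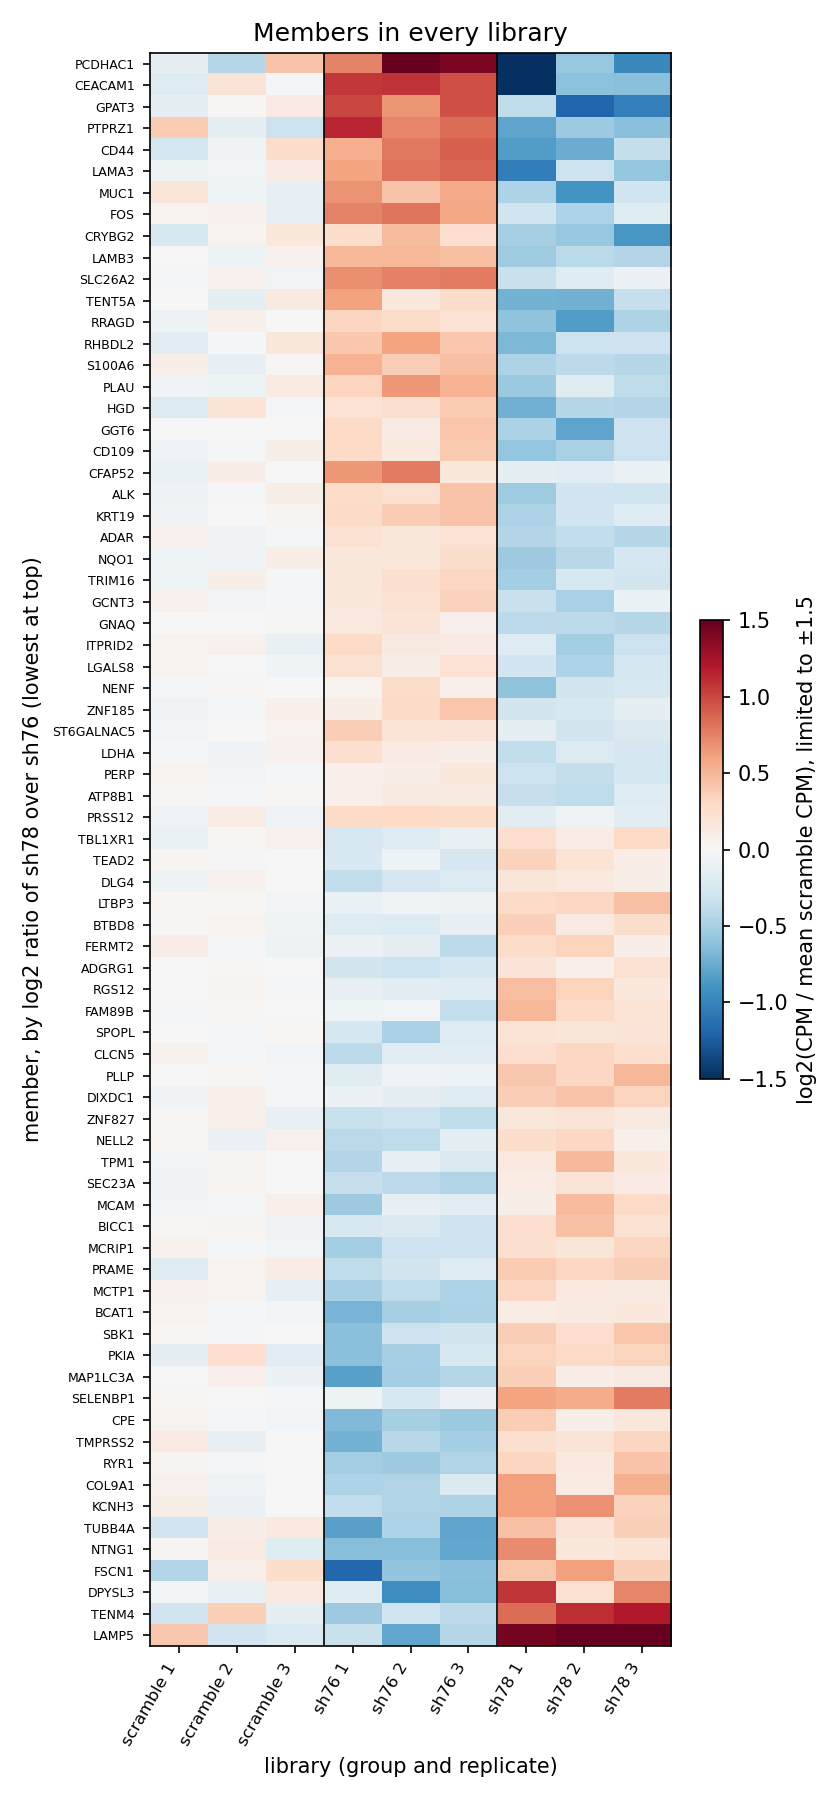
Rows are 74 of the 75 members, ordered by the log2 ratio of mean CPM with sh78 over sh76, and columns the 9 libraries; colour gives log2 of CPM over the mean scramble CPM, limited to 1.5 either way. The upper 36 rows are red with sh76 and blue with sh78 and the lower 38 the reverse, with pale scramble columns; PCDHAC1, CEACAM1 and LAMP5 reach the ends of the scale.

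By role, receptors and signalling genes (7 higher and 7 lower with sh78) and adhesion and matrix genes (6 higher and 7 lower) were split about evenly. Transcription and chromatin genes were 5 higher and 1 lower, trafficking and autophagy genes 4 and 0, and mucin and glycan genes 0 and 3. Channels and transporters were 3 and 2, proteases 2 and 3, cytoskeleton and cilia 4 and 3, metabolic enzymes and binding proteins 3 and 5, RNA-acting genes 1 and 2, and other genes 4 and 3. Members known mainly from the nervous system were present in both directions, with 8 higher and 6 lower with sh78. Roles were assigned after the members were known, and a share over all eligible genes was not computed for them.

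The same contrasts were fitted with edgeR over 17023 genes, and the members' share of calls is set beside that of all genes. For sh76 against scramble, 28 of the 75 members were called at an adjusted p under 0.05, where 3.58% of all genes tested were called. For sh78 against scramble 22 were called, against 4.41% of all genes, and between the hairpins 71 were called, against 3.7%. Because the rule used these very contrasts, nothing is read from the members' shares. The 4 members not called between the hairpins were CFAP52, BTBD8, FAM89B and NELL2. With the replicate number as a block, the members called were 54 for sh76 (20.4% of all genes), 58 for sh78 (19.9%) and 75 between the hairpins (18.3%).

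Calls against scramble with both hairpins and with opposite signs were rare. There were 7 such genes among the 17023 tested (0.0411%): the members CEACAM1, MUC1, LAMB3, S100A6, KRT19 and KCNH3, and SLC9A2, which the rule left out. SLC9A2, a sodium and proton exchanger, had 5.99, 5.06 and 4.73 CPM with scramble, 14, 8.62 and 7.69 under sh76 and 2.5, 3.34 and 2.06 under sh78. Of the 6 members, KCNH3 was the one higher with sh78. With the replicate block the number of members with opposite calls was 44, of 133 genes in all (0.781%). The 6 became 2 without scramble replicate 2, without scramble replicate 3 or without sh76 replicate 2, and 3 without sh76 replicate 3.

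The spread of the members between replicate numbers is a description as well, since the demand for groups that do not overlap limits the spread within a group. In a fit with group and replicate number, edgeR called 28.8% of the 17023 genes and 36.3% of the eligible genes for replicate number. Of the members, 13 of 75 (17.3%) were called. Nothing is read from this share beside the others. They were CD44, MUC1, PLAU, CD109, KRT19, NQO1, TRIM16 and ZNF185 among those lower with sh78, and TBL1XR1, TPM1, MCAM, PRAME and TENM4 among those higher. By edgeR adjusted p CD44 stood first (9.27e-07), with replicate 3 above replicate 1 by 0.48 and replicate 2 above replicate 1 by 0.21 on the log2 scale over all groups. KRT19 was next by adjusted p (0.000462), with 0.20 and 0.12. Some members with a higher adjusted p differed more, such as TENM4 with 0.28 and 0.40. The number called was 7 without sh76 replicate 1 and 6 without sh76 replicate 3. In all 75 members the hairpins differed in the same direction in each of the 3 same-numbered pairs, which the rule itself fixes.

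Of 445 tested genes in 18 pathway lists, 8 were members, and all 8 were lower with sh78: LAMA3 and LAMB3 (mesenchymal and matrix genes), FOS (AP-1 and immediate early genes), SLC26A2 (channels and transporters), KRT19 (keratins), NQO1 (NRF2 targets), LDHA (glycolysis) and PERP (p53 targets). Of the list genes, 408 were eligible for the rule, so that the 8 are 1.96% of these, beside 0.617% of all eligible genes. The shares were set side by side without a test. The lists were chosen with earlier results of these data known, so nothing is read from the higher share. In the sentences on lists that follow, a count with the replicate block comes from the fit with the replicate number as a term. Over all genes tested, 336 were called higher and 293 lower with sh78 than with sh76, with a median log2 difference of 0.00; with the replicate block these were 1650 and 1467. The keratin list covers keratins and squamous differentiation genes. Of its 21 tested genes, 0 were called higher and 7 lower, with a median of −0.67. KRT8 (−0.31, edgeR adjusted p 0.0546) and KRT18 (−0.12, edgeR adjusted p 0.585) were not among the 7. With the replicate block 1 was higher and 14 lower, and KRT8 (edgeR adjusted p 2.07e-08) and KRT18 (adjusted p 0.0267) were called. KRT6A, a keratin of stratified epithelia, had 27.3, 29.5 and 35 CPM with scramble, 35.9, 30.4 and 37 under sh76 and 6.15, 7.03 and 7.46 under sh78, with log2 fold changes of 0.16 with sh76 (edgeR adjusted p 0.552) and −2.16 with sh78 (edgeR adjusted p 1.44e-06). In the AP-1 list 0 of 27 were called higher and 4 lower (median −0.17), and with the replicate block 1 and 9. EGR1 had 21.2, 24.1 and 25.6 CPM with scramble, 38.1, 46.8 and 43.1 under sh76 and 18.9, 27.8 and 24.4 under sh78: higher with sh76 (log2 fold change 0.84, edgeR adjusted p 0.00417) and not different with sh78 beyond the spread (−0.00, adjusted p 0.998). The hairpins differed in EGR1 by −0.85 (edgeR adjusted p 0.0042). In the matrix list 5 of 30 were called higher and 2 lower (median −0.01), and the 2 were LAMA3 and LAMB3. With the replicate block 7 were higher and 7 lower. In the glycolysis list 0 of 28 were higher and 3 lower (median −0.22), and with the replicate block 2 and 17. The integrated stress response list had no member, with 20 of 25 genes called lower with each hairpin and 0 called between them by edgeR (3 lower with sh78 at an unadjusted p under 0.05, and 1 by DESeq2). With the replicate block 23 were lower with sh76, 25 with sh78, and 4 lower with sh78 than with sh76. At an unadjusted p under 0.05, genes higher with sh78 numbered 0 in the keratin list, 1 in the AP-1 list and 0 in the glycolysis list, and DESeq2 called 0 in each. In the interferon-stimulated list 4 of 34 genes were called higher and 0 lower with sh78 than with sh76. With the replicate block these were 10 and 1. Against scramble, 12 genes of this list were called higher and 0 lower with sh78 (block 18 and 0). With sh76 these were 1 and 0 (block 9 and 1). Over all genes tested, 315 were called higher and 435 lower with sh78 than with scramble, and 243 and 367 with sh76. ADAR, which was lower with sh78, is not in this list. The growth factor list had 4 of 30 higher and 1 lower (block 11 and 7). The cholesterol list had 0 of 29 either way (block 11 and 2). Of lists with a member, NRF2 targets had 0 of 27 higher and 2 lower (block 2 and 9). The p53 list had 0 of 23 and 1 (block 3 and 4), and the transporter list 1 of 37 and 3 (block 7 and 10). The lists' counts are a description, with no test of a list.

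In GC content and level the members as a whole were close to the eligible genes, and in exonic length they were longer at the median. Their median exonic length was 6424 bases against 5263, their median GC content 49.5% against 49.0% and their median mean CPM 34.6 against 33.3. Members higher with sh78 had a median length of 7164 bases and a GC content of 52.3%, and those lower with sh78 5582 bases and 47.8%. They were spread over 22 chromosomes, with 12 on chromosome 1 (0.97% of the eligible genes there), 7 on chromosome 11 and 6 on chromosome 17. In 3 pairs the gene bodies lay within 1 Mb of each other, and in each pair both members had the same direction. ADAR and MUC1 lie 557.8 kb apart on chromosome 1 with 15 eligible genes between them. PLLP and ADGRG1 lie 326.0 kb apart on chromosome 16 with 6 between. PLLP, a membrane protein of myelin, had 35.8, 35.9 and 34.8 CPM with scramble, 31.2, 34.4 and 33.6 under sh76 and 47, 43.9 and 50.3 under sh78. LTBP3 and FAM89B lie 13.4 kb apart on chromosome 11 with none between. FAM89B shares 70.6% of its exonic bases with SSSCA1, a gene with a mean of 57.3 CPM on the same strand, and its own values are uncertain: it had 7.8, 8.07 and 8.0 CPM with scramble, 7.61, 7.75 and 6.19 under sh76 and 11.3, 9.76 and 9.19 under sh78.

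Counting limits the identity of some members. In 31 of the 75, some exonic bases are shared with another annotated gene, and FAM89B has the highest share. The next shares were those of PCDHAC1, PLAU (31.1%), LGALS8, TRIM16 (28.7%), TPM1, PLLP (19.9%), NQO1 (17.7%) and TUBB4A (15.9%). The libraries carry no strand, so that reads of genes on opposite strands cannot be told apart there. Keratins, tubulins and CEACAM genes have close relatives, and how the authors' counting treated reads that match several genes is not given in the sources used here.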

How the data were processed

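RNA was measured by sequencing of poly-A selected, non-directional libraries, per the labels' protocols. The authors deposited raw counts per gene and FPKM values (counts scaled by gene length and library size); the submitters' processing notes name HISAT2 2.0.5, featureCounts 1.5.0-p3 and hg38, with no settings. Positions of 58724 of 58735 genes equalled those of GENCODE release 29 (GRCh38). The 75 members were found from CPM computed with the library totals as scale. The members, gene lists and tests were chosen with earlier results of these data known, and roles and motifs after the members were listed.

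Counts were fitted with edgeR 4.0.16 (R 4.3.3): filterByExpr (minimum count 10, minimum total 15) kept 17023 genes, with TMM factors, robust quasi-likelihood F tests, 1 coefficient per group over 9 libraries, and Benjamini-Hochberg adjustment over all genes kept. Calls are at an adjusted p under 0.05. The biological coefficient of variation was 10.4%.

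Replicate numbers come from the labels. Deviations from group means correlated at 0.14 to 0.39 in 9 same-numbered pairs of libraries from different groups and at −0.31 to 0.06 in 18 other pairs, so the numbers were taken to pair the samples. A fit with the number as a block stands beside counts of calls and named calls that it changes. The SEs given for single genes come from the fit without the block, which ignores the pairing. For sh76 against scramble the SE was 0.16 for CD44 and 0.08 for KRT19, and 0.06 and 0.04 with the block. For LAMP5 it was 0.29 and 0.30. Chi-square per degree of freedom between replicates of a group was 4.9 to 11.07, so no library was a duplicate.

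Genes were named by this rule, with values per library: GPX3, the 12 highest and 12 lowest members by the ratio of the hairpins, members called with opposite signs, members in a pathway list, the 3 on either side of the threshold and members within 1 Mb of each other. Other members were named, many with values per library, to account for the set, and SLC9A2, DYNLRB1 and the genes of pathway lists that are no members were chosen after their values were seen. Some genes that this rule names are not reported here. Alternatives were DESeq2 1.42.0, library totals, no count filter, the block, limma 3.58.1 on log2(FPKM + 0.1) and log2(FPKM + 1), other thresholds and scalings for the rule, and leaving out each library. No column was left out.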

Additional observations from a re-analysis of the deposited data

Results flagged for a closer look

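The effects of the hairpins under the same contrast with scramble differed. By the direct edgeR test of sh78 against sh76, 629 of 17023 genes were called at an adjusted p under 0.05, 336 higher and 293 lower with sh78. In the 75 members of the set every library of one hairpin lay above, and every library of the other below, all scramble libraries; this difference was fixed by the choice of members and was not tested.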

How the results depend on the processing

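The rule gave 75 genes with CPM, 70 with TMM-scaled CPM and 71 with DESeq2 size factors. Of the 75, 65 were kept with either; CFAP52, HGD, MCAM, NELL2, PERP, PRAME, PRSS12, TBL1XR1, TENT5A and ZNF185 were lost with both. FPKM gave 70 genes (62 of the 75; ATP8B1, NENF and NQO1 were lost as well). Ordering the groups within same-numbered triplets (replicate block) gave 260 genes, all 75 among them, and 19 genes of the pathway lists in place of 8. Leaving out 1 library gave 84 (sh78 replicate 1) to 132 (scramble replicate 1) genes. All such settings were planned.

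Without the count filter edgeR called 1149 genes for sh76, 1212 for sh78 and 1125 between the hairpins, and with the replicate block 3467, 3388 and 3117, in place of 610, 750 and 629. Leaving out 1 library gave 237 to 655 genes for sh76, with 237 and 339 without sh76 replicates 2 and 3 and 313 and 333 without scramble replicates 2 and 3. It gave 418 to 810 for sh78, with 418 and 458 without scramble replicates 2 and 3 and 469 and 453 without sh78 replicates 2 and 3. Between the hairpins it gave 273 to 780, with 273 and 368 without sh76 replicates 2 and 3 and 344, 375 and 351 without sh78 replicates 1, 2 and 3. The 6 members called with opposite signs became 11 with DESeq2, 2 with log2(FPKM + 0.1) and with log2(FPKM + 1), 14 without the filter, 44 with the replicate block, and 2 to 7 when 1 library was left out. Genes called for replicate number were 3125 with DESeq2 in place of 4905 and 3708 to 4618 when 1 library was left out; members called were 6 to 16 in place of 13. Signs were checked for the 37 members that the naming rule covers, and no log2 fold change of these changed sign under an alternative. Of their values, 35 moved by more than the spread, all on the log2(FPKM + 1) scale, and 1630 did not. The other members were not part of this check. Low genes such as PCDHAC1 and LAMP5 rest on 11 to 124 counts per library, which limits their precision.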

Other observations

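Outside the protein-coding genes, 11 of 1334 genes of other biotypes with a mean CPM of at least 2 met the rest of the rule, and all 11 were lower with sh78 and higher with sh76. SNHG19, a host gene of small nucleolar RNA, had 34.3, 37.4 and 33.5 CPM with scramble, 58.5, 47.3 and 56.3 under sh76 and 33, 32 and 33 under sh78. CERNA2, a long intergenic RNA, had 20.5, 18.3 and 16.9 CPM with scramble, 34.6, 30.5 and 25.1 under sh76 and 14.6, 14.6 and 13.1 under sh78. AC099568.2, the one with the widest difference between the hairpins (−1.34 on the log2 CPM scale), had 7.09, 8.3 and 10.1 CPM with scramble, 10.9, 11 and 15.4 under sh76 and 3.16, 5.39 and 6.17 under sh78. The others were AC099329.2, AL390719.1, AC005332.5, MIR4453HG, AC006333.2, AC007066.2, U91328.1 and AL358472.4. In SNHG19 the lowest scramble library (33.5 CPM) was close to the highest sh78 library (33 CPM). Exonic overlap was not computed for these 11 genes, and the libraries carry no strand. By biotype AC006333.2 and AL358472.4 are antisense, AC007066.2 is sense overlapping and AL390719.1 is a pseudogene. The nearest member to any of them was S100A6, 0.43 Mb from AL358472.4.

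The neighbour of MAP1LC3A on chromosome 20, DYNLRB1, lies 5.9 kb away and did not share its pattern. DYNLRB1, a light chain of cytoplasmic dynein, had 38.1, 44.1 and 39.9 CPM with scramble, 87.9, 82.7 and 87 under sh76 and 87.3, 89.3 and 86.8 under sh78, higher with both hairpins and almost equal between them, whereas MAP1LC3A was lower with sh76 and higher with sh78. This gene was chosen after its values were seen.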
